A study of Rattus norvegicus with 14 samples.

Results

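The AP-1 transcription factor genes of the Fos and Jun families were examined in the motor cortex of rats with a spinal cord injury. The members were the 4 Fos genes (Fos, Fosb, Fosl1 and Fosl2) and the 3 Jun genes (Jun, Junb and Jund), found as all probe sets whose only gene symbol was one of these names. Each of the 7 genes had exactly 1 probe set, among 22093 genes with a single symbol on the array. The 14 arrays came from male rats (Rattus norvegicus) with spinal cord injury (SCI), 7 labelled MSC and 7 labelled vehicle, and MSC commonly stands for mesenchymal stem or stromal cell. The infusion, MSC or vehicle into the femoral vein, was given 24 hours after the cord was injured, and the cortex was taken on day 3 after it. Every rat in both groups received cyclosporine A, an immunosuppressant that blocks calcineurin, each day. The sources used here do not give strain, age or the origin of the cells, there was no uninjured group, and no label says that each array was a separate rat. A p-value below thus reflects variation between arrays, some of which could be technical. The family was chosen by gene name and selected on earlier results of these arrays, in which the Fos log2 mean was lower in the MSC group, so the group differences of the members are a description.

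AP-1 is a dimer of basic leucine zipper proteins. Fos proteins bind DNA mainly as partners of Jun proteins, while Jun proteins can also pair with each other, and the dimers recognise the sites known as TRE and CRE. In cortical neurons Fos, Fosb and Junb are immediate early genes, transcribed within minutes of synaptic activity through CREB and serum response factor and lost again quickly because their mRNAs are unstable. Jund is transcribed more steadily, and Fosl1 and Fosl2 are usually induced later than Fos.

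The promoters of 3 members are shown because 2 of them, Fosb and Junb, moved with Fos across the arrays and the third, Jund, showed no such relation. Sequences are from RefSeq on the rat assembly GRCr8, each running from 250 bases before to 50 bases after the start of the gene, read 5′ to 3′ on the gene's strand. Capitals mark matches to the CRE TGACGTCA, to its core TGACG or to TATAAA, on either strand, so that CGTCA and TTTATA are matches read on the opposite strand. The Fosb window is chr1:88089135-88089434 on the minus strand, that of Junb chr19:40080876-40081175 on the plus strand, and that of Jund chr16:18769722-18770021 on the minus strand.
Fosb: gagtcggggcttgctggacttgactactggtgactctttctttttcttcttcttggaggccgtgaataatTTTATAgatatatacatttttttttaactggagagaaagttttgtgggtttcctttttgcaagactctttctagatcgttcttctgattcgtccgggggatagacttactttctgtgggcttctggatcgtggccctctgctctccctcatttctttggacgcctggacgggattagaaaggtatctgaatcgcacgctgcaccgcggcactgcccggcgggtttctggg
Junb: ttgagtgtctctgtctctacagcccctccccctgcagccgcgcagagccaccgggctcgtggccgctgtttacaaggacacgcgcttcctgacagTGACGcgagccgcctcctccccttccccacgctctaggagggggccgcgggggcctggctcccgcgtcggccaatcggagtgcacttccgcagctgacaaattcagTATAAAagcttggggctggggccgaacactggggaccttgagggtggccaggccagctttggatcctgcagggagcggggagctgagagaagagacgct
Jund: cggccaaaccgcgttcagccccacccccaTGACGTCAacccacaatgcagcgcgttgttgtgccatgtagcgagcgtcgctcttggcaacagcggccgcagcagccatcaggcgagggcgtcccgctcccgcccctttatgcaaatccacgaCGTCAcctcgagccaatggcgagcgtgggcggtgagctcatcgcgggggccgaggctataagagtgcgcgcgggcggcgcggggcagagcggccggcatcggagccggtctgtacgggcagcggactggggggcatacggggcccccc
The Junb window held a CRE core from -155 and TATAAA from -49, counted from the gene start. The Jund window held the whole CRE from -221, with a core on each strand inside it, and a further core from -98. The Fosb window held only the TATAAA match, on the opposite strand from -180. Windows were given for 5 members, and 3 of the 5 held a CRE core, 1 a whole CRE, 2 TATAAA and 0 either the TRE, TGANTCA, or the CArG box, the site of serum response factor. Over all 33469 promoter windows of the same length the shares were 21.2% for the core, 1.83% for the CRE, 14.2% for TATAAA, 7.33% for the TRE and 1.64% for the CArG box. A match describes letters in the window and is not a measured binding site.

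The values were log2 expression after robust multi-array average (RMA) processing, in which 1 unit is a doubling. Array medians lay between 5.77 and 5.903, and any 2 arrays correlated at 0.990 to 0.997 over probe sets. Replicates 6 and 7 of both groups stood apart in the spike-in control dap (7.45 to 8.12 against 8.35 to 9.92), a split that is balanced between the groups. Choroid plexus markers were high in MSC replicate 4 and vehicle replicate 2, at a summed log2 level of 17.0 and 16.9 against 8.50 to 10.4 elsewhere. Markers of cortical excitatory neurons were high in every array, 19.0 to 19.5 in MSC and 18.8 to 19.3 in vehicle, with 7 of 7 measured markers above the array medians. For MSC replicate 7 the free text says vehicle while title and treatment say MSC, and it was kept as MSC.

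Fos, the founding member of the family and a common marker of recent neuronal activity, spread more widely over the arrays than any other member. In the MSC group its lowest, median and highest log2 values were 6.86, 8.21 and 9.40, and in the vehicle group 8.35, 9.31 and 9.91. The groups overlapped: 4 MSC arrays lay below every vehicle array, while MSC replicate 6, at 9.40, lay above the vehicle mean. Replicates 4 and 5 of the MSC group were the lowest of all 14, at 6.86 and 7.06. The means were 8.17 ± 0.92 in MSC and 9.24 ± 0.48 in vehicle arrays (SD, n = 7 each). From the lowest to the highest array the Fos signal differed 8.24-fold, and its SD over the 14 arrays, 0.90, was larger than that of 99.8% of the genes above the array medians, whose median SD was 0.15.

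Fosb, whose truncated splice form is long-lived in neurons, followed the same low arrays over a narrower range. It ran from 6.92 through a median of 7.55 to 7.68 in MSC arrays and from 7.24 through 7.57 to 7.83 in vehicle arrays. Only MSC replicates 4 and 5, at 7.004 and 6.92, lay below all vehicle arrays, and the other 5 MSC arrays lay within the vehicle range. The group means were 7.41 ± 0.31 and 7.55 ± 0.20 (SD, n = 7 each).

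Fosl2, which encodes Fra-2, showed no such low arrays. Its values ran from 6.82 through 7.09 to 7.35 in MSC and from 6.81 through 7.01 to 7.29 in vehicle arrays, so the ranges nearly coincided. Fosl1, which encodes Fra-1, ran from 4.995 through 5.05 to 5.40 and from 4.95 through 5.09 to 5.30. Fosl1 was below 5.77, the lowest of the array medians, in every array, which marks a dim signal, so its values say little about the transcript.

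**Figure D1:**
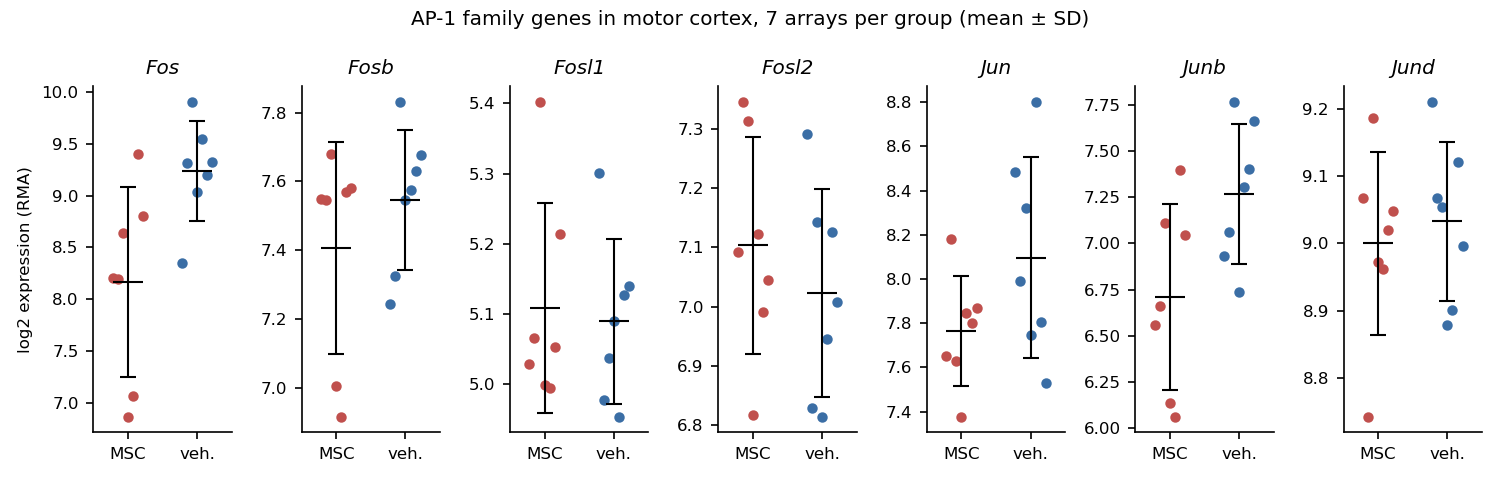
Log2 expression (RMA) of the 7 members in each of 7 MSC (red) and 7 vehicle (blue, veh.) arrays, in order of replicate number, with the mean and SD in black; each panel has its own vertical scale. In the Fos, Fosb and Junb panels the same 2 MSC arrays, replicates 4 and 5, are lowest, and in no panel are the groups separate.

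Among the Jun genes, Junb had the widest spread. JunB is an activity-induced partner of Fos that is a weaker activator than c-Jun at many sites. Its values ran from 6.06 through 6.66 to 7.40 in MSC and from 6.74 through 7.30 to 7.77 in vehicle arrays. As with Fos, 4 MSC arrays lay below every vehicle array, replicates 4 (6.14) and 5 (6.06) were the lowest, and replicate 6 (7.40) was the highest of its group. The means were 6.71 ± 0.50 and 7.27 ± 0.38 (SD, n = 7 each), and the SD over 14 arrays, 0.52, was larger than that of 98.9% of the genes above the array medians.

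Jun, which encodes c-Jun, the main target of the JNK kinases, followed Fos in some arrays and not in others. It ran from 7.38 through 7.80 to 8.18 in MSC and from 7.53 through 7.99 to 8.80 in vehicle arrays, with means of 7.76 ± 0.25 and 8.10 ± 0.45 (SD, n = 7 each). Its lowest array was MSC replicate 4 (7.38), also the lowest for Fos, and its highest was vehicle replicate 5 (8.80), the second highest for Fos. Vehicle replicate 1 (8.48) was high for Jun and not for Fos, and MSC replicate 5 (7.84), among the lowest for Fos, was close to the middle for Jun. Jund, the steady member, ran from 8.74 through 9.02 to 9.19 in MSC and from 8.88 through 9.05 to 9.21 in vehicle arrays. Its SD over 14 arrays was 0.12, below the median gene, and only MSC replicate 2 (8.74) lay below the vehicle range.

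The comparison of the infusions asked whether AP-1 genes differ between motor cortex of MSC and vehicle rats. Means were lower in MSC arrays for 5 of 7 members and higher for Fosl1 and Fosl2. Of all 68842 probe sets tested 58% had a lower mean, as did 11567 of the 22093 genes by their brightest probe set. Fos differed by -1.07 on the log2 scale (95% interval -1.81 to -0.33), a 2.10-fold higher mean in vehicle, and Junb by -0.56 (-1.01 to -0.10), a 1.47-fold higher mean. Jun differed by -0.33 (-0.71 to 0.043) and Fosb by -0.14 (-0.41 to 0.13). The remaining differences were -0.032 (-0.18 to 0.12) for Jund, 0.082 (-0.11 to 0.28) for Fosl2 and 0.019 (-0.14 to 0.17) for Fosl1. In 6 of 7 MSC arrays Fos, Junb and Jun lay below their vehicle means, against 3 of 7 for Fosb. With limma, 0 of 7 members and 0 of all probe sets (0%) passed an adjusted p of 0.05, and every member had an adjusted p of 0.9999. At an unadjusted p below 0.05 there were 2 members, Fos and Junb, and 3.41% of all probe sets; since this contrast was known when the family was picked, nothing is read from that count. In a bulk sample, fewer cells of a type and less RNA per cell cannot be told apart.

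The differences were also taken within the replicate sets that the spike-in controls separate. Within replicates 1 to 5 Fos differed by -1.44 (95% interval -2.26 to -0.62), Junb by -0.65 (-1.15 to -0.16) and Jun by -0.53 (-0.97 to -0.094). Within replicates 6 and 7, with 2 arrays per group, Fos differed by -0.16 (-0.67 to 0.34), Junb by -0.31 (-0.71 to 0.090) and Jun by 0.17 (-0.16 to 0.49). A test of the change between the sets, chosen after these values were seen, gave 1.27 for Fos (95% interval -0.13 to 2.68), and did not pass the adjustment over all probe sets in limma. Without MSC replicate 4, Fos differed by -0.86, and without both arrays with high choroid plexus markers by -0.84, with Junb at -0.49. For Fosb, Jun and Fosl2 single arrays carried much of the difference, which was -0.059 for Fosb without MSC replicate 5 and -0.21 for Jun without vehicle replicate 5. That of Fosl2 was 0.041, 0.047, 0.049 and 0.047 without MSC replicate 2, MSC replicate 3, vehicle replicate 2 and vehicle replicate 4, and 0.13 without MSC replicate 4 or vehicle replicate 1.

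**Figure D2:**
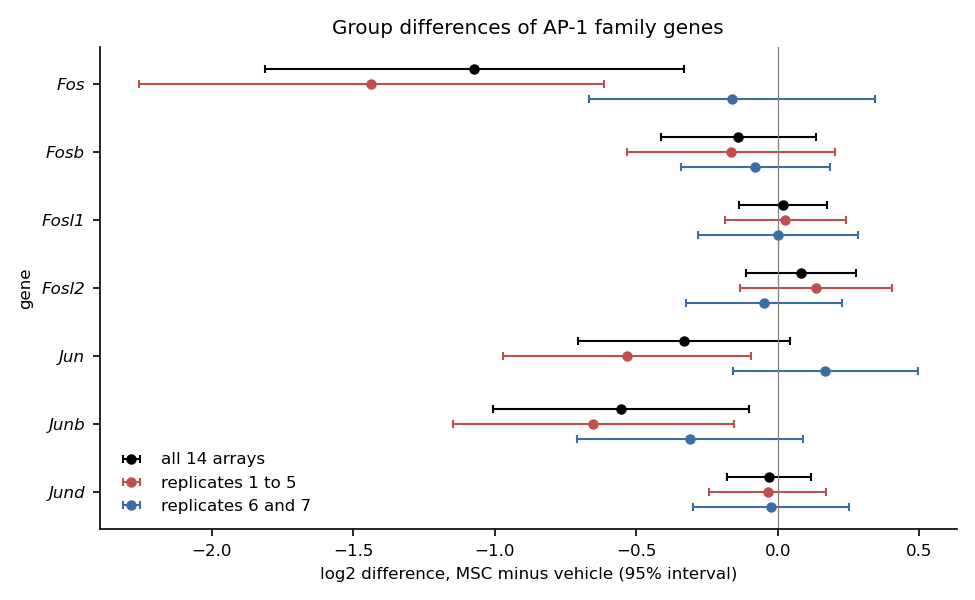
Log2 difference, MSC minus vehicle, of each member with its 95% interval, from limma, over all 14 arrays (black), replicates 1 to 5 (red) and replicates 6 and 7 (blue). Intervals of Fos and Junb lie below 0 over all arrays and over replicates 1 to 5, and include 0 for replicates 6 and 7.

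Across arrays, Fos, Junb and Fosb rose and fell together, and no pair with another member passed the test. Pearson's r was computed for all 21 pairs of members over the 14 arrays, with a permutation p adjusted over the 21 pairs. The permutation ran over all 14 arrays, so the group differences, known when the family was picked, enter these values. The 3 pairs among Fos, Junb and Fosb passed an adjusted p of 0.05. The other 18 pairs had r between -0.12 and 0.58 and adjusted p from 0.127 to 0.895. Without MSC replicate 2, 6 pairs passed, the additional ones being the 3 pairs among Fosl1, Fosl2 and Jund. With group means removed and arrays permuted within groups, the same 3 pairs as over all arrays passed. Replicates 6 and 7 hold too few arrays for an r of their own.

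Fos and Junb, which encode partners in the same dimer, were the closest pair. Pearson's r was 0.92 (permutation p = 3e-05, adjusted p = 0.00063) and Spearman's rho 0.89 (permutation p = 0.00013). Removing the group means left r at 0.88, and within replicates 1 to 5 it was 0.93. Within the MSC arrays alone r was 0.97 (exact permutation p = 0.00159, unadjusted), and within the vehicle arrays 0.70 (exact permutation p = 0.07). Without MSC replicates 4 and 5, the 2 arrays farthest from the Fos median, r was 0.83 (permutation p = 0.00093, unadjusted), so the relation did not rest on them. It was 0.92 without MSC replicate 4 and vehicle replicate 2, the arrays with high choroid plexus markers.

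Fosb was related to both Fos and Junb, less so without the 2 lowest arrays. Fos and Fosb gave r = 0.82 (permutation p = 0.00101, adjusted p = 0.00707) and rho = 0.66 (permutation p = 0.0124, adjusted p = 0.0865), so the rank measure missed the threshold. Fosb and Junb gave r = 0.81 (permutation p = 0.0005, adjusted p = 0.00525) and rho = 0.82 (permutation p = 0.00054). With group means removed these r values were 0.86 and 0.82 (permutation within groups, adjusted p = 0.00525 for both), and within replicates 1 to 5 both were 0.80. Within the MSC arrays r was 0.89 for Fos and Fosb (exact permutation p = 0.0173, unadjusted) and 0.86 for Fosb and Junb (exact permutation p = 0.00952, unadjusted). Within the vehicle arrays it was 0.79 (exact permutation p = 0.0335, unadjusted) and 0.77 (exact permutation p = 0.0454, unadjusted). Over both groups without MSC replicates 4 and 5, however, r fell to 0.44 for Fos and Fosb (permutation p = 0.156) and to 0.54 for Fosb and Junb (permutation p = 0.0685), so the pooled relations no longer passed without those arrays.

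For c-Jun no relation to Fos passed. Fos and Jun gave r = 0.39 (permutation p = 0.173). Within replicates 1 to 5 their r was 0.58 (permutation p = 0.0767, unadjusted), and with group means removed 0.16. Jun and Junb gave r = 0.29 over all arrays, 0.61 within replicates 1 to 5 (permutation p = 0.0614, unadjusted) and 0.062 with group means removed. Fosl1 correlated at 0.58 with both Fosl2 (permutation p = 0.0276) and Jund (permutation p = 0.0302), and neither passed the adjustment over 21 pairs.

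**Figure D3:**
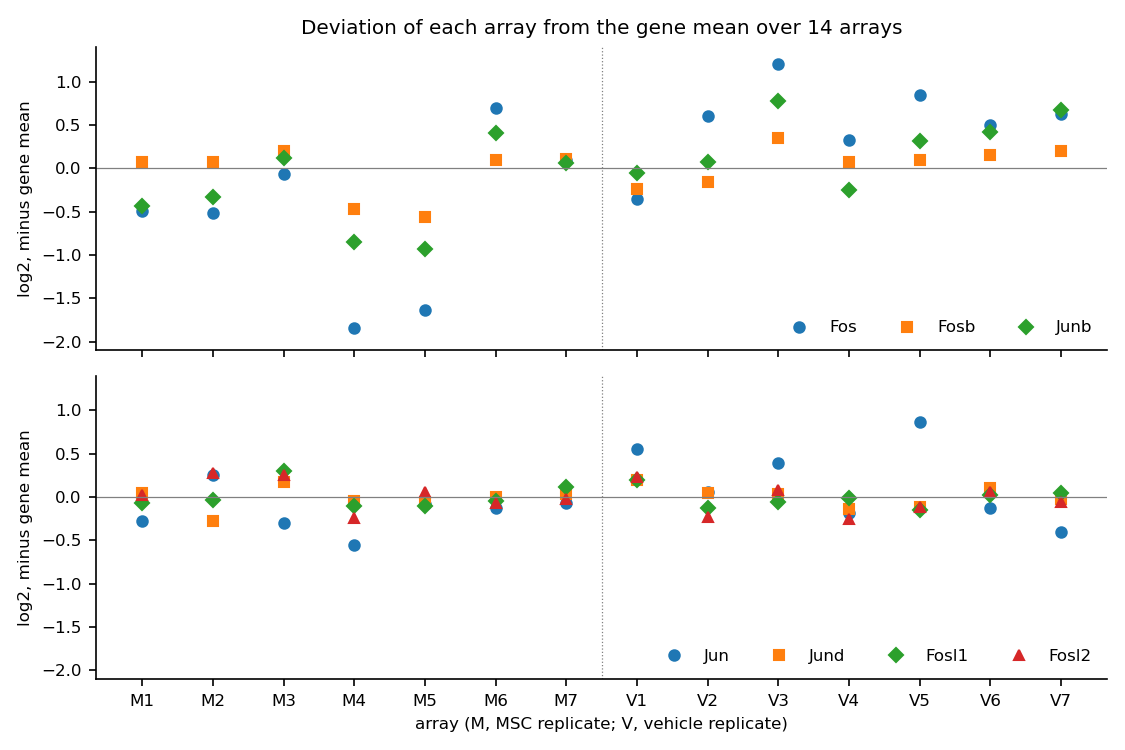
Log2 value of each member minus its own mean over 14 arrays, for MSC replicates 1 to 7 (M1 to M7) and vehicle replicates 1 to 7 (V1 to V7). In the upper panel Fos, Fosb and Junb are all lowest in M4 and M5 and highest in V3, whereas no member of the lower panel has its 2 lowest values in those arrays.

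**Figure D4:**
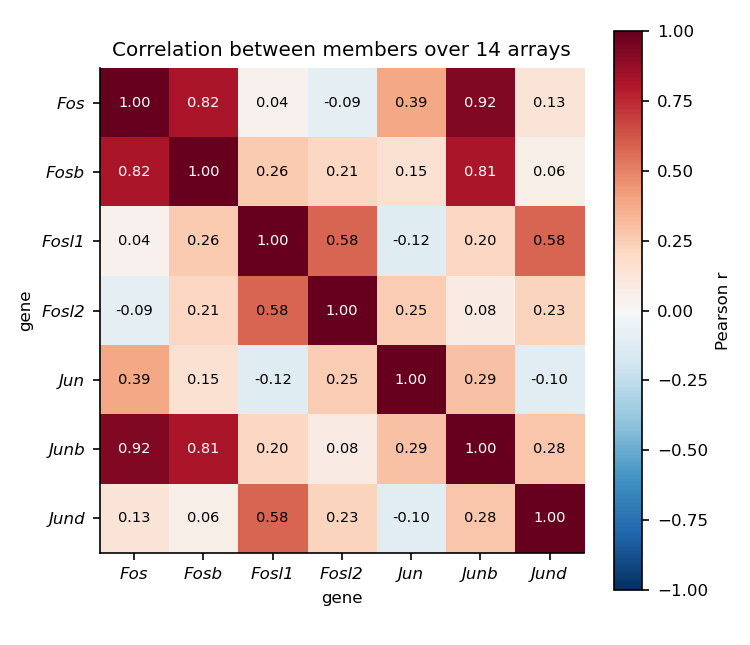
Pearson's r of each pair of members over the 14 arrays, printed in each cell and coloured from -1 (blue) to 1 (red). The 3 cells among Fos, Fosb and Junb are at 0.81 to 0.92, and no other pair is above 0.58.

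Over the whole table, Junb and Fosb were near the top of the genes that follow Fos. Among 13700 genes above the array medians, ranked by r with Fos, Junb was number 2 and Fosb number 8, while Jun was number 1147, Jund 4270 and Fosl2 7741. An r above 0.75, a limit set after the values were seen, was reached by 2 of these 5 members and by 0.182% of the 13700 genes, whose median r was -0.034. In a limma fit of every probe set on the Fos level with the group as a term, the slope was 0.54 log2 units per log2 unit of Fos for Junb (95% interval 0.37 to 0.71, adjusted p = 0.183) and 0.31 for Fosb (0.19 to 0.43, adjusted p = 0.514). In that fit 0 of 68841 probe sets (0%) passed, and at an unadjusted p below 0.05 3.05% had a positive and 1.23% a negative slope; Junb and Fosb were the 2 members among them, both positive. The count depended on the arrays and the group term: it was 5 without the group term, namely Sik1, Junb, Dusp1, Nr4a1 and Arc, with Junb at an adjusted p of 0.00739 in limma. Without vehicle replicate 3 it was 6, of which only Arc had a positive slope. Those of Shisa6, Tanc1, Nr3c2 and the unnamed probe sets were negative. Without vehicle replicate 4 it was 2, and without MSC replicate 3 or vehicle replicate 5 it was 1. Junb and Fosb were not among the probe sets that passed in these fits.

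Of the 10 genes most like Fos, 5 were on the list of other immediate early genes: Sik1, Nr4a1, Dusp1, Arc and Trib1. That list supplied 30 of the 13700 genes ranked. It was chosen with earlier results of these data known, so the count is a description. Sik1, a kinase of CREB coactivators, led with r = 0.94 over 14 arrays, followed by the orphan receptor Nr4a1 (0.91), the MAP kinase phosphatase Dusp1 (0.90) and the synaptic gene Arc (0.90). Next were the pseudokinase Trib1 (0.85), the clock factor Bmal1 (0.85), Mbd3l2 (0.82), the ADP-ribosyltransferase Tiparp (0.82), tissue plasminogen activator Plat (0.81) and Dcaf12l1 (0.80). These r values are a description, and the genes share the arrays and their scaling with Fos. Without MSC replicates 4 and 5, Sik1 stayed at 0.91, Dusp1 at 0.80 and Arc at 0.76, while Trib1 was at 0.61 and Dcaf12l1 at 0.50. All 10 had lower means in the MSC group, from -0.067 for Dcaf12l1 (SE 0.053) to -1.36 for Dusp1 (SE 0.35), none past the adjusted threshold in limma. They were picked by r over both groups, and Fos itself had a lower MSC mean, so the shared direction is partly built in. Of all 22093 genes 11567 had lower means. Dcaf12l1 has 2 probe sets, of which the brighter is given. Of the 6 promoter windows given for these 10 genes, 3 held the CRE core (Sik1, Nr4a1 and Dusp1), and that of Dusp1 held a whole CRE, as that of Jund did.

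**Figure D5:**
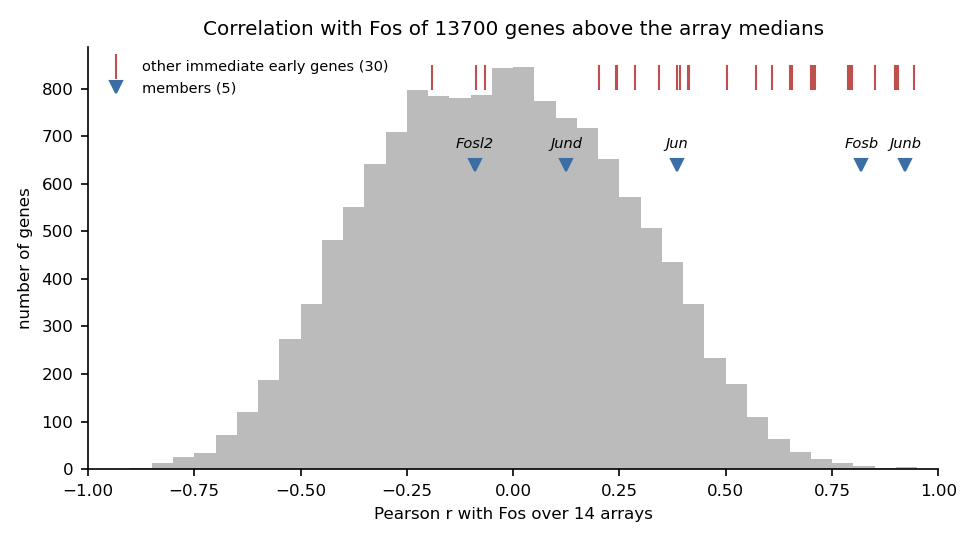
Number of genes (grey bars) by Pearson's r with Fos over 14 arrays, for 13700 genes above the array medians, with 30 other immediate early genes as red ticks and 5 members as blue triangles. Junb and Fosb lie in the far right tail. Jun, at 0.39, lies above the upper quartile of 0.18, and Jund and Fosl2 lie within the bulk of the genes.

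Of the genes most like the other members, those of Junb were among the 10 of Fos and those of Fosb, Fosl2, Jun and Jund were not. Junb was closest to Arc (r = 0.92), Nr4a1 (0.89) and Trib1 (0.86). Fosb was closest to the zinc finger factor Egr2 (0.85), Tax1bp3 (0.85) and the cAMP response modulator Crem (0.79). With Fos, Egr2 had r = 0.798, close to the 0.803 of Dcaf12l1, the last of the 10, and Crem had r = 0.77. Jun was closest to Get3 (0.84), Elk1, an ETS factor that acts with serum response factor (0.84), and Tnip1 (0.83). Fosl2 was closest to the corepressor Runx1t1 (0.91), the phosphatase subunit Ppp2r5d (0.90) and the G protein subunit Gnb4 (0.90). Jund was closest to the heat shock cochaperone Dnajb1 (0.88), Amd1, an enzyme of polyamine synthesis (0.83), and the small nucleolar RNA Snord22 (0.81).

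Genes that act with, on or after AP-1 were taken from 6 lists, in which 0 genes passed the adjusted threshold in limma. Other immediate early genes had lower means in MSC arrays for 28 of 36 measured, with a median difference of -0.18. Over all 22093 genes 11567 had lower and 10526 higher means, with a median of -0.0038, the background for the counts of every list here. At an unadjusted limma p below 0.05 there were 9 of the 36 early genes, all lower. By that measure 2.41% of all probe sets and 354 of the 22093 genes were lower. Since the list was chosen with earlier results of these data known, nothing is read from that count. Dusp1 differed by -1.36 ± 0.35 (SE) and Ppp1r15a, a phosphatase subunit of the stress response, by -0.27 ± 0.069, with Ppp1r15a below the array medians. The list's median was -0.25 within replicates 1 to 5 and 0.00021 within replicates 6 and 7. Of the 30 early genes above the array medians, 9 had an r with Fos above 0.75 (Sik1, Nr4a1, Dusp1, Arc, Trib1, Egr2, Ier2, Klf4 and Npas4), and their median r was 0.63. These 9 were named after their values were seen.

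Dimer partners of the bZIP class had lower means for 15 of 22 genes, with a median of -0.028, beside 11567 of all 22093 genes with lower means. Atf3, a stress-induced partner of Jun, differed by -0.14 ± 0.054 (SE), with means near the array medians. Jdp2, a repressor that pairs with Jun, differed by -0.24 ± 0.13. Kinases and factors upstream of Fos and Jun had higher means for 20 of 32 genes and a median of 0.028. Elk4, an ETS partner of serum response factor, differed by -0.087 ± 0.045, and Mrtfa, a coactivator of that factor, by 0.25 ± 0.13.

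Proteins that bind AU-rich mRNAs, the class of sequence that makes Fos mRNA short-lived, had lower means for 7 of 11 genes, with a median of -0.021. Zfp36, which promotes decay of such mRNAs and is itself an early gene on both lists, differed by -0.20 ± 0.10 (SE), or -0.13 without vehicle replicate 2, and Tia1, a translational repressor, by 0.12 ± 0.066. Regulators of Fos and Jun protein had a median of -0.0032, with 8 of 15 lower. Men1, whose product menin binds JunD, differed by 0.21 ± 0.12, or 0.11 without vehicle replicate 4, and Itch, a ubiquitin ligase for Jun proteins, by -0.073 ± 0.064, or -0.040 without MSC replicate 3. Genes known as AP-1 targets had higher means for 17 of 27 and a median of 0.027, beside 10526 of all 22093 genes with higher means. Among them the quinone reductase Nqo1 differed by 0.13 ± 0.077, or 0.087 without vehicle replicate 4. Its means, 5.89 in MSC and 5.75 in vehicle arrays, were near the array medians. The growth factor Vegfa differed by 0.14 ± 0.089, or 0.071 without vehicle replicate 2. With 1 array left out these small list medians ran from -0.037 to -0.014 for the dimer partners, 0.0060 to 0.051 for the upstream genes, -0.042 to 0.017 for the AU-rich binding proteins, -0.020 to 0.011 for the protein regulators and 0.0087 to 0.046 for the targets, so that 2 of them changed sign.

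Markers of other cells and regions were set beside Fos across the 14 arrays. By summed level, the list of thalamus and hippocampus had the strongest relation to Fos of 12 marker lists. Its r was -0.59 (permutation p = 0.0273, adjusted over 12 lists p = 0.328) and its rho -0.56 (permutation p = 0.0407, unadjusted). Without the 2 arrays farthest from its median r was -0.69, within replicates 1 to 5 it was -0.56, and with group means removed -0.42. With Junb the same list had r = -0.39. All 7 of its 7 markers were measured above the array medians, with a summed log2 level of 13.1 to 14.3 in MSC and 13.04 to 13.6 in vehicle arrays. Of these 7 markers Prox1 (r = -0.65) and Wfs1 (r = -0.58) had the most negative r with Fos, and Tcf7l2, a defining gene of thalamus, was at -0.24. Calb2 (-0.052) and Zic1 (0.029) were near 0, and Lef1 (0.25) and Rora (0.33) were positive. The summed level weights bright genes most, here Wfs1 and Rora with mean log2 levels of 12.4 and 12.1. MSC replicates 4 and 5, lowest for Fos, stood at 13.9 and 13.8, and the part of these markers' tissue in the Fos values was not tested. Cortical excitatory neuron markers had r = -0.15 with Fos and general neuron markers r = -0.17, and without the 2 arrays farthest from each list's median these turned to 0.46 and 0.53. Single genes of the cortical excitatory list ran from -0.69 (Neurod2) and -0.57 (Neurod6) to 0.16 (Nrgn). Its brightest genes, Camk2a and Nrgn, with mean log2 levels of 18.1 and 17.9, weigh most in its sum. In other lists Pde10a (-0.58) and Aqp4 (-0.57) were about as negative as Wfs1, while S100b (0.62) and Vip (0.53) were positive. An r this negative was thus not confined to thalamus and hippocampus markers.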

How the data were processed

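Motor cortex RNA (100 ng per array) was hybridised to Affymetrix whole-transcript arrays. The authors deposited log2 values from RMA, for which the submitters' processing notes list Affymetrix Expression Console; the sources used here give no versions. RMA subtracts background and makes the arrays' distributions alike, so a shift shared by most genes would not be seen. Of 70580 probe sets, 1738 controls were left out and 68842 tested. Of these, 23446 had 1 symbol in the platform annotation, updated through a RefSeq gene table, 505 had several and 44891 are unnamed here. A gene is represented by its brightest probe set.

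The comparison of groups used lmFit and eBayes of limma 3.58.1 (R 4.3.3) without covariates, with Benjamini-Hochberg adjustment over all probe sets and a threshold of 0.05, and slopes on Fos were fitted likewise with the group as a term. Correlations used 100000 permutations, or all 5040 pairings within a group of 7, two-sided. All differences are MSC minus vehicle. Named besides the members were the 10 genes most correlated with Fos, 3 for each other member above the array medians, and the 2 with the smallest p in each list. The members, lists and rules were chosen with earlier results of these data known. Precision is limited by the number of arrays. In simulated data with 68842 probe sets, the group fit recovered 54.5% of 200 shifts of 0.5 and 94.5% of 200 shifts of 1. The Fos fit recovered 68.5% of 200 probe sets correlated at 0.9 within groups. The changed probe sets were drawn at random from those above the lowest array median and kept their own SDs. These rates therefore do not hold for a gene as variable as Fos, whose difference had an SE of 0.35. Planting many shifts also eases the adjusted threshold for each of them. Alternatives changed scaling, filters, variance model, arrays and the group of MSC replicate 7.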

Additional observations from a re-analysis of the deposited data

Results flagged for a closer look

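No member had an array that stood apart from the rest of its group by Dixon's test at the 95% level. The test takes the gap beside 1 extreme array, so 2 low arrays close together hide each other. Fosb in MSC replicates 4 and 5, at 7.004 and 6.92 with the next lowest MSC array at 7.54, was therefore not flagged. Of 56 groups of 7 arrays tested, over the 28 genes whose differences are given, 2 had such an array, where chance gives about 1 in 20. Men1 was at 8.62 in vehicle replicate 4, with the nearest other vehicle array at 9.18. Ppp1r15a was at 5.94 in vehicle replicate 3, with the nearest other vehicle array at 5.64.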

How the results depend on the processing

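The count of members past the adjusted threshold between the groups was 0 in the 26 alternatives, and Fos, Junb and Fosb kept a lower MSC mean in each. With 1 array left out, Fos differed by -1.28 to -0.86, and the number of members with a lower mean was 4 to 6. Differences close to 0 turned: Fosl1 ran from -0.030 to 0.054 and Jund from -0.063 to 0.011 with 1 array left out, and Fosl1 was -0.015 with MSC replicate 7 counted as vehicle. Within replicates 6 and 7, with 2 arrays per group, signs turned for Jun (0.17), Fosl2 (-0.049), Fosl1 (-0.00016), Mrtfa (-0.033), Zfp36 (0.12), Itch (0.0205), Trib1 (0.0019), Bmal1 (0.0033), Plat (0.18) and Dcaf12l1 (0.036). Pairs of members past the threshold numbered 3, 3 to 6 with 1 array left out, 2 by Spearman's rho, 4 after repeated quantile normalization or median subtraction, and 1, Fos and Junb, without the 2 arrays farthest from the median. Probe sets with a slope on Fos past the threshold, in either direction, numbered 0 to 6 with 1 array left out. They numbered 2 after repeated quantile normalization (Arc and Sik1) and 5 without the group term, and the cause was not tested. No label ties a replicate number to a shared animal or day. Same-numbered arrays correlated at -0.17 to 0.40, with 3 of 7 pairs over 0.1 (numbers 5, 6 and 7, of which 6 and 7 also stand apart in the spike-in controls), and 4 of 14 arrays correlated best with their own number. With the replicate number as a block, 0 members passed and 0 probe sets had a slope on Fos past the threshold. Of the pairs of members 0 passed. The smallest permutation p that swaps within numbers allow is 0.0156, so 3 pairs could not pass the adjustment over 21. Fos and Junb had r = 0.93 there, with an adjusted permutation p of 0.328. Fos and Fosb had r = 0.77, and Fosb and Junb r = 0.66. The alternative with other probe sets of a member was not run, since each has 1. The number of arrays limits small differences, and for Fosl1 the dim signal does so too.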
